A study of Mus musculus with 16 samples.

Results

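The change in ventricular transcripts between nulliparous and lactating mice was averaged over both Npr1 genotypes, using all 16 of the series' 16 arrays. For each gene the lactating minus nulliparous difference was taken within Npr1+/+ mice and within Npr1-/- mice, and the mean of both differences is the averaged lactation change. Each state therefore had 8 arrays, with genotype as a factor. The arrays carried probes for 21159 genes. Tests covered the 14065 genes whose probe cleared background on every array of some group.

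The animals were female mice of 4 groups, nulliparous wild-type, nulliparous knockout, lactating wild-type and lactating knockout, and the design text gives 4 independent mice for each. RNA was taken from the ventricles, with lactating mice sampled at 2 weeks. The knockout was labelled only as Npr1-/-, without a tissue restriction, and no source used here gave strain, age, litter size or time of day. Nulliparous mice have not given birth, so lactating mice also differ from them by a completed pregnancy and birth. Each array measured bulk tissue, in which fewer cells of a type and less RNA per cell cannot be told apart.

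Pregnancy and nursing raise blood volume and cardiac output, and the rodent heart enlarges reversibly under this load. Cardiomyocytes release the natriuretic peptides ANP and BNP when stretched, and the receptor encoded by Npr1 answers them by making cyclic GMP, which relaxes vessels, promotes salt excretion and restrains cardiomyocyte growth. Enlarging hearts commonly switch on genes of the fetal heart, remodel their matrix and shift their use of fuels. The averaged change asks which of these transcripts move with lactation whether or not the receptor is present.

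Levels are log2 processed signals from which the 75th percentile of the same array was subtracted, so 0 is the brightness of a fairly bright probe. Changes are log2 differences ± standard error (SE) from limma. Genes are called where the p-value, adjusted by Benjamini and Hochberg's method across all tested genes, fell under 0.05. On 7 nulliparous arrays that percentile was 165 to 225, and on the lactating ones 279 to 349. Nulliparous knockout replicate 4 stood apart from its group, with a 75th percentile of 284 and a first principal component score of 14.7, against -47.5 to -39.2 on the other nulliparous arrays and 27.7 to 42.0 on the lactating arrays. That component held 53.6% of the variance over genes, and brightness moved with it, so the part of overall signal in the changes was not tested. Among 1368 genes called with at least a 2-fold change when this array was left out, and as large a change in knockout mice, it lay a median 0.735 of the way from the other nulliparous to the lactating knockout mean. Counts of calls in a gene list that its omission moved by over 1.5 times are also given without it. The probe for Npr1 had levels of -4.68 to -3.53, was well above background on 9 of 16 arrays, 4 of them wild-type and 5 of them knockout, and did not pass the filter. Its place relative to the deleted part of the gene was not given, so it checks nothing about the genotype.

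**Figure D1:**
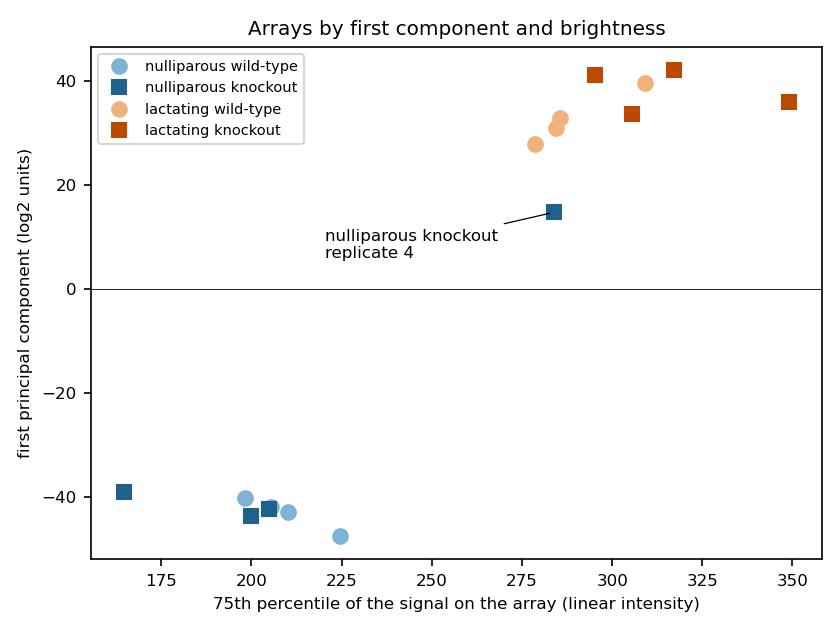
Each point is 1 array, with the 75th percentile of its signal (linear intensity) on the x axis and its score on the first principal component (log2 units) on the y axis. The 8 lactating arrays lie at the upper right, 7 nulliparous arrays at the lower left, and nulliparous knockout replicate 4 at 284 and 14.7 between them.

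Most of the measured transcriptome differed between lactating and nulliparous arrays, by small amounts. In the averaged change 8688 of 14065 genes were called (61.8%), 5267 higher in lactation (37.4%) and 3421 lower (24.3%). Against these shares, calls in both directions within a gene list are not by themselves a property of that list. The median size of a called change was 0.51 log2, and 5100 of the called genes changed by less than 1.5-fold. At least a 2-fold change was reached by 808 genes that rose and 422 that fell, and a 4-fold change by 68 and 46. Without nulliparous knockout replicate 4, 9175 genes were called (65.2%) and 8559 of them were shared with the full set, all of these with the same sign. The median change over all genes was 0.09, and centring each array on its median moved this to 0.27, with 7212 genes called higher and 1961 lower. All 8 lactating arrays lay above all 8 nulliparous arrays for 1437 genes and below them for 861 (16.3% in all); without nulliparous knockout replicate 4 these were 3086 and 1623 (33.5%). The split between higher and lower calls is therefore relative to the scale: 60.6% of calls were higher on the 75th percentile scale and 78.6% on the median scale.

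The arrays lay on 2 slides, each with 2 arrays of every group. Fitted on each slide alone, 8684 of the 8688 called genes had the same sign on both. These genes were called on the arrays of both slides together, which selects equal signs, so this count is no independent replication. Slide 2 by itself called 2198 genes. Among the 170 genes named by rule, 7 lost their call on slide 1 alone and 66 on slide 2 alone, and no called one changed sign.

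The averaged change was set beside the change in each genotype. Of the 8688 called genes, 8647 had the same sign in wild-type and in knockout mice, a share of 99.5% against 61.7% among the genes not called. Calling on the mean of both changes selects genes with equal signs, so this share does not show that both genotypes responded. Tested alone, wild-type mice gave 7056 calls (50.2%) and knockout mice 6130 (43.6%), and 4939 of the averaged calls were called in both genotypes with the same sign. Another 1851 were called alone only in wild-type and 1032 only in knockout, while 865 were called in the average and in neither genotype alone. The changes of both genotypes correlated across genes with a Pearson r of 0.833 and a Spearman rho of 0.852; these contrasts share no array, and genes are not independent replicates. The fitted slope of knockout on wild-type change over called genes was 0.876 with all arrays and 1.08 without nulliparous knockout replicate 4. The order of the genotypes in overall size of response thus turned with 1 array.

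**Figure D2:**
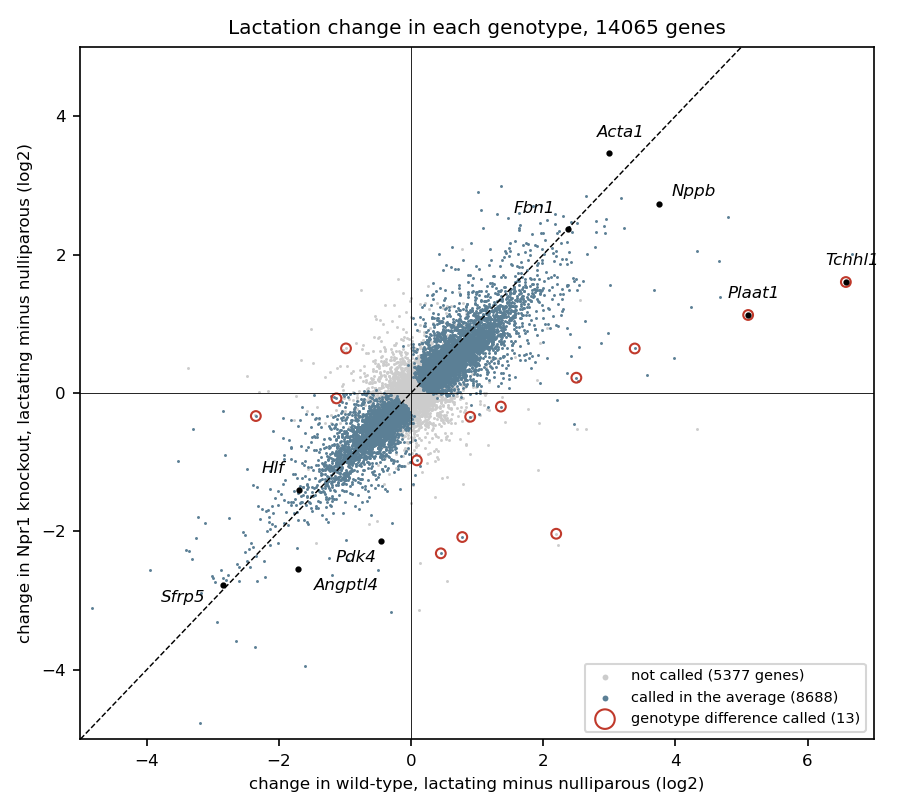
Each point is 1 of 14065 genes, with its lactating minus nulliparous change in wild-type mice (x axis, log2) and in knockout mice (y axis, log2), and the dashed line marks equal change. Called genes lie mostly at the upper right and lower left, and the 13 circled genes have a called difference between genotypes.

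A direct test of the genotype difference in response called 13 genes (0.0924%), and 969 had an unadjusted p under 0.05. A missing call does not show equal responses, so the interval of the difference was used. For 7148 of the 8688 called genes (82.3%) the 95% interval of the knockout minus wild-type difference lay inside -1 to 1 log2. Among the 1230 genes called with at least a 2-fold change this held for 497 (40.4%). The median interval was 0.85 log2 wide.

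The natriuretic peptide genes and other markers of cardiac load rose in both genotypes. Nppb, which encodes BNP, rose by 3.24 ± 0.27 (9.45-fold, limma adjusted p = 3.48e-06). Acta1, the skeletal muscle actin re-expressed in loaded hearts, rose by 3.23 ± 0.30 (9.40-fold, limma adjusted p = 4.11e-06). Rcan1, a feedback target of calcineurin signalling, rose 4.21-fold, and Ankrd1, a stretch-responsive sarcomere protein, rose 2.29-fold. Nppa, which encodes ANP, rose 2.18-fold.

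Nulliparous levels of Nppb had a lowest value of 2.59, a median of 4.41 and a highest value of 5.39. Lactating levels of Nppb ran from 7.0 over a median of 7.59 to 8.01. All 8 lactating mice lay above all 8 nulliparous mice, and the nulliparous wild-type mice were spread most widely. Acta1 ran from 3.03 over a median of 3.97 to 4.99 in nulliparous mice and from 5.73 over 7.53 to 8.49 in lactating mice. These ranges did not overlap either, and the lowest nulliparous value belonged to knockout replicate 1. The Nppb change was 3.75 in wild-type and 2.72 in knockout mice, with a difference of -1.03 (95% interval -2.20 to 0.14). For Acta1 the changes were 3.00 and 3.46, with a difference of 0.46 (95% interval -0.82 to 1.74). Nppa overlapped between states: nulliparous mice reached 9.46 and lactating mice began at 8.66.

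Not every gene of the fetal and hypertrophic list moved that way. Of its 22 tested members 10 were called higher (45.5%) and 5 lower (22.7%), not far from the 37.4% and 24.3% over all tested genes. The list's median change was 0.26 against 0.09 over all tested genes. Further rises were seen for Ankrd2 (1.11), Xirp2 (0.79), the cardiac transcription factor gene Gata4 (0.52), Csrp3 (0.43) and Fhl2 (0.38). After normexp background correction, which fits a model of the background and adds an offset, Ankrd2 had a change of 0.22 and was not called. The adult myosin heavy chain gene Myh6 fell by 0.50 ± 0.09 (limma adjusted p = 2.78e-04), while the fetal myosin gene Myh7 had a change of 0.01 ± 0.45 and was not called. Under quantile normalization the change of Myh6 was -0.058 and its call was lost (limma adjusted p = 0.441). The call was also lost on slide 2 alone. A second, dimmer probe of Myh6 had a change of -1.22, and with the mean of its probes the change was -0.86 and was called. Myh7 differed widely within states, from 5.97 to 9.35 among nulliparous mice and from 7.24 to 9.02 among lactating mice. The other genes called lower were Fhl1, the atrial light chain genes Myl4 and Myl7, and Cmya5, whose change of -0.20 was -0.022 and not called after median centring.

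The promoters of Nppb and Acta1 are shown because these genes had the largest rises among genes bright on every array. Each is the 250 bases before the RefSeq start in GRCm38.p6, 5′ to 3′ on the gene's strand, Nppb at chr4:147985650-147985899 (plus) and Acta1 at chr8:123894776-123895025 (minus). Capitals mark 2 motifs searched on both strands: M-CAT (CATTCC, which reads GGAATG on the other strand), bound by TEAD factors, and the CArG box, bound by serum response factor.
Nppb: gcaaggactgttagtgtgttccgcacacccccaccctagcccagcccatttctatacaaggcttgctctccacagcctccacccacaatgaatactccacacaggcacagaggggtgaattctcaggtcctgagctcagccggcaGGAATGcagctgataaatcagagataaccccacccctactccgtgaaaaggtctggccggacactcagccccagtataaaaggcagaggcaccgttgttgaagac
Acta1: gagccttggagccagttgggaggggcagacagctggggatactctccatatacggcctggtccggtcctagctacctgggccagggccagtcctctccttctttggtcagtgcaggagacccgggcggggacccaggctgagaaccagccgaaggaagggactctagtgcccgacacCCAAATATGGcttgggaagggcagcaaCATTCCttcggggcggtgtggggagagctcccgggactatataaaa
Nppb held 1 M-CAT match, at -105 to -100 from the start, and Acta1 held 1 M-CAT match at -46 to -41 and 1 CArG match at -73 to -64. Of 19 promoters matched for the list, 7 held M-CAT (36.8%) and 5 held CArG (26.3%). Among the 11174 promoters of tested genes the shares were 10.9% and 1.29%. These matches describe letters in a window and no binding was measured.

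**Figure D3:**
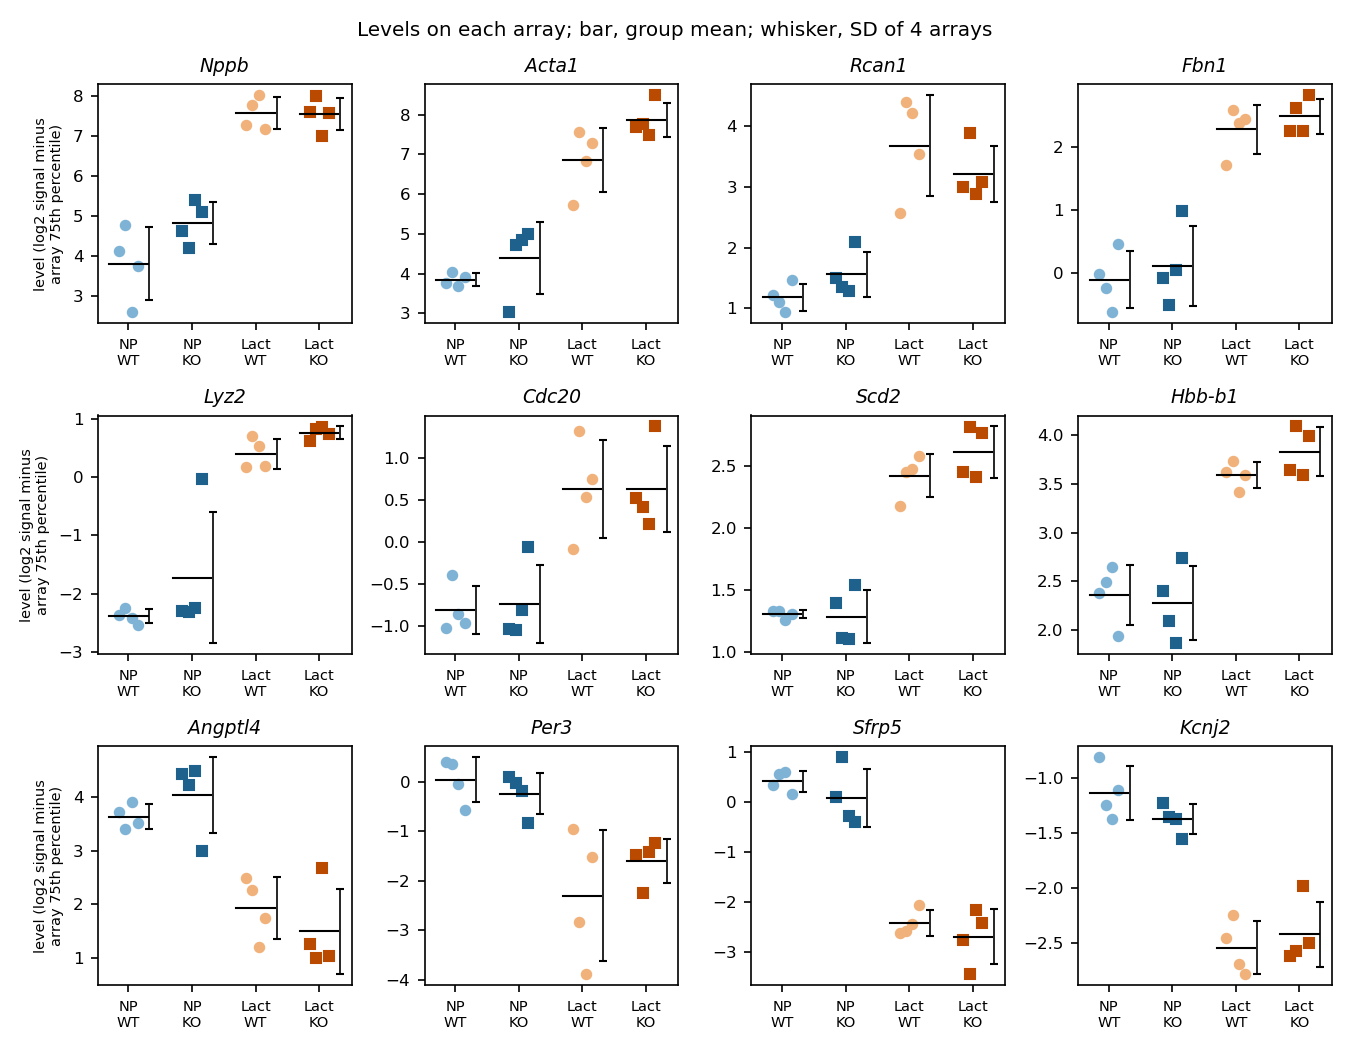
Each panel shows the level (log2, relative to the 75th percentile of the array) of 1 gene on each of the 16 arrays, in nulliparous (NP) and lactating (Lact) wild-type (WT) and knockout (KO) mice; bars are group means and whiskers the SD of 4 arrays. The first 8 genes were higher and the last 4 lower in lactation, and for Cdc20 the states overlap.

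Matrix genes rose broadly. Of 38 tested members of the extracellular matrix list 30 were called higher and 4 lower, with a median change of 0.93. Fbn1, the fibrillin of elastic microfibrils, rose by 2.37 ± 0.21 (5.17-fold, limma adjusted p = 3.48e-06). Its nulliparous levels ran from -0.61 over a median of -0.04 to 0.99 and its lactating levels from 1.71 over 2.41 to 2.81, without overlap. The rise of Fbn1 was 2.37 in wild-type and 2.36 in knockout mice, and the 95% interval of the difference was -0.91 to 0.89.

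Fibrillar, basement membrane and matricellular genes took part. The fibrillar collagen genes Col1a1 and Col3a1 rose 2.08-fold and 1.76-fold, and Col4a1 of the basement membrane rose 2.59-fold. The matricellular genes Thbs1, Postn and Ccn2 rose 3.90-fold, 2.46-fold and 2.35-fold, the proteoglycan gene Bgn 2.66-fold, and Timp1, an inhibitor of metalloproteinases, 2.65-fold. Mfap5, a microfibril partner of fibrillin, rose 2.47-fold and Eln, encoding elastin, 2.01-fold. The collagen cross-linking enzyme gene Lox was well above background on all 8 lactating and none of the nulliparous arrays, and was at least 1.49-fold higher in lactation; its change was -0.02 after normexp background correction. Col15a1 went the other way and fell by 1.48 ± 0.25 (limma adjusted p = 1.59e-04), but with the mean of its probes its change was -0.24 and was not called. For Ccn2 the wild-type change of 1.92 and knockout change of 0.55 differed by -1.38 (95% interval -1.99 to -0.76), with a limma adjusted p of 0.21 over all genes.

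Fibroblast identity genes moved in both directions. Of 12 tested fibroblast markers 6 were called higher (50%) and 2 lower (16.7%), against 37.4% and 24.3% over all tested genes. Their median change was 0.31. Tcf21, a transcription factor of cardiac fibroblasts, rose 2.07-fold, while the values for Pdgfra and Pi16 were -0.08 and 0.01 and were not called. Col1a1 and Mfap5 stand in both lists. Nulliparous knockout replicate 4 lay 0.389 of the way towards lactation over 18 matrix genes, less than over all genes.

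Genes of mitosis rose together. All 21 tested members of the mitosis and proliferation list were called higher, with a median change of 1.68; 5 further members did not pass the filter. Background was cleared on all 16 arrays by 12 of them, and all 12 were called higher, with a median of 1.5. The other tested members could pass the filter through the lactating groups alone. That favours rises among them, so their calls add little. Prc1, a bundler of spindle microtubules, rose by 2.39 ± 0.40 (5.23-fold), and Mki67, the proliferation marker Ki-67, rose 3.31-fold. Cdc20, an activator of the anaphase-promoting complex, rose 2.64-fold, and Anln, which encodes a protein of the cleavage furrow, 3.32-fold. Ccnb1, encoding cyclin B, was well above background on 1 nulliparous and 8 lactating arrays and was at least 5.55-fold higher; its change was 0.43 after normexp correction.

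Cdc20 levels ran from -1.04 over a median of -0.91 to -0.06 in nulliparous mice and from -0.09 over 0.53 to 1.37 in lactating mice. The highest nulliparous value came from knockout replicate 4, and it overlapped only with lactating wild-type replicate 1. Over 19 genes of the list, knockout replicate 4 lay 0.789 of the way towards lactation. Without it the median change was 1.94 and 21 of 21 genes were again called higher. These genes are dim, and after normexp background correction 18 of 21 were called higher with a median of 0.56, so the size of the rise depends on how background is treated while its direction held for the called genes.

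The Cdc20 promoter is shown as an example of the cell cycle promoter type, in which a CHR element stands close to CCAAT boxes. It covers chr4:118437344-118437593 (minus strand, GRCm38.p6), and capitals mark TTTGAA, the core of the CHR element, and CCAAT, both searched on both strands.
Cdc20: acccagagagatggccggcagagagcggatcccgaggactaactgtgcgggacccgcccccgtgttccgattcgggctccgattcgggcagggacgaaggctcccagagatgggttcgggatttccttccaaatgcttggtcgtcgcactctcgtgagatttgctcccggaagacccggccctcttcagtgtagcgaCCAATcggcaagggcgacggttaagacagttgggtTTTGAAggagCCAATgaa
The TTTGAA match lies at -18 to -13 from the start, and the CCAAT matches at -53 to -49 and -8 to -4. Of 18 promoters found for the list 15 held CCAAT (83.3%) and 7 held TTTGAA (38.9%), against 35.8% and 10.8% of the promoters of tested genes.

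DNA replication genes were mixed. Of 23 tested members 13 were called higher (56.5%) and 3 lower (13.0%), against 37.4% and 24.3% over all tested genes. Their median change was 0.28. Pcna, the sliding clamp of DNA polymerase, rose 1.75-fold, whereas Mcm7 of the replicative helicase fell by 0.37 ± 0.06 and did not overlap between states. Cdkn1a, encoding the cell cycle inhibitor p21, rose by 1.61 ± 0.41, with changes of 2.55 in wild-type and 0.67 in knockout mice. Arrays of whole tissue do not say which cells carried these transcripts.

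Macrophage markers also rose. Of 20 tested members 14 were called higher and 1 lower, with a median change of 1.03. Lyz2, the lysozyme of myeloid cells, rose by 2.64 ± 0.27 (6.24-fold, limma adjusted p = 5.83e-06). Folr2 rose by 1.90, Adgre1, a surface marker of mature macrophages, by 1.45, and the complement genes C1qa and C1qb by 2.01 and 1.77. Mertk and Cd163 were among the 5 members not called, with changes of 0.18 and 0.32. Which type of macrophage these values reflect was not tested. The C1q genes were among the rises most alike in both genotypes, at 2.02 and 2.00 for C1qa. Ccr2, a marker of recruited monocytes, had a change of -0.31 and was not called, and Itgam, an integrin gene of myeloid cells, was the member that fell, by 1.04 ± 0.14. With the mean of its probes Itgam had a change of -0.16 and was not called. After normexp correction 13 macrophage markers were called higher and 4 lower.

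Lyz2 levels ran from -2.54 over a median of -2.31 to -0.03 in nulliparous mice and from 0.18 over 0.66 to 0.87 in lactating mice. On 7 nulliparous arrays Lyz2 lay at -2.24 or below, and knockout replicate 4 alone lay at -0.03. The mean level over the 20 macrophage markers ran from -0.50 to -0.02 on the other nulliparous arrays and from 0.39 to 1.09 on the lactating arrays, and knockout replicate 4 was at 0.49. With that array left out 15 of 20 were called higher, with a median of 1.12. Markers of lymphocytes did not follow: none of 6 tested T cell genes and none of 4 tested B cell genes was called higher, and Cd22 of B cells fell by 1.18. Called lower were 1 T cell gene and 2 B cell genes, or 2 and 3 without knockout replicate 4. After median centring 1 T cell gene was called higher. Antigen presentation gave 6 higher and 1 lower of 12, led by the protease gene Ctss (3.11-fold) and H2-DMa (2.78-fold). Interferon response genes gave 5 higher (27.8%) and none lower of 18, against 37.4% and 24.3% over all tested genes. After median centring 12 were called higher. The rises included Irf7 (1.88-fold) and Ifi27l2a (2.12-fold).

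Red cell genes were higher in lactation. Of 6 tested erythroid genes 5 were called higher and none lower, with a median of 0.66. Hbb-b1, a beta globin gene, rose by 1.38 ± 0.13 (2.61-fold, limma adjusted p = 4.75e-06), from 1.87 over 2.39 to 2.74 in nulliparous mice to 3.41 over 3.63 to 4.09 in lactating mice. The states did not overlap, and the level on knockout replicate 4 was 2.74. Hba-a1 rose 1.58-fold and Alas2, the first enzyme of haem synthesis in red cells, 1.42-fold. Globin probes of near-identical genes can share signal. Tfrc, the transferrin receptor gene, rose 5.91-fold, and its 2 other probes had changes of 1.57 and 0.75. How much blood each sample held was not measured, and the part of blood in these values was not tested.

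Fuel genes moved in both directions. Of 17 tested targets of the fatty acid sensing PPAR receptors 9 were called lower and 2 higher, with a median change of -0.25. After median centring 5 were called lower and 3 higher, and after normexp correction 6 and 2; Fabp3, Cpt1b and Mlycd were among those that lost their calls on the median scale. Angptl4, an inhibitor of lipoprotein lipase, fell by 2.13 ± 0.28 (4.37-fold, limma adjusted p = 2.48e-05). Pdk4, which blocks pyruvate oxidation, fell by 1.30 ± 0.33. Acot1 fell by 1.03 and Ppargc1a, a coactivator of mitochondrial biogenesis, by 0.87 (-0.44 with the mean of its probes). The list members that rose were Slc25a20, the carnitine carrier (1.86-fold), and Plin2, a lipid droplet coat protein (1.31-fold).

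Angptl4 ran from 2.99 over 3.82 to 4.49 in nulliparous mice and from 0.99 over 1.5 to 2.68 in lactating mice. The states did not overlap, and the nearest pair of values came from nulliparous knockout replicate 4 and lactating knockout replicate 3. For Pdk4 the average joined unlike values: its change was -0.45 in wild-type and -2.14 in knockout mice. That difference was -1.69 (95% interval -3.08 to -0.30), with a limma adjusted p of 0.646, and the states overlapped.

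Among enzymes of fatty acid uptake and oxidation 7 of 25 were called higher (28%) and 10 lower (40%), with a median of -0.01. Over all tested genes these shares were 37.4% and 24.3%. After median centring 12 were called higher and 5 lower, so no common direction can be given. Hadh fell by 0.73. Decr1 fell by 0.51, but had a change of -0.047 and was not called with the mean of its probes. Glycolysis and pyruvate oxidation gave 14 higher and 2 lower of 25, with a median of 0.28. Pgk1 rose 2.09-fold, Pdha1 of the pyruvate dehydrogenase complex 2.10-fold, Pgam1 1.75-fold and Pfkl 1.74-fold. Synthesis of cholesterol and fatty acids gave 10 higher (40%) and 1 lower (4%) of 25. The share higher was near the 37.4% over all tested genes, and the share lower was under their 24.3%. After median centring 16 were called higher, on a scale where 7212 of all 14065 tested genes were. The desaturase gene Scd2 ran from 1.10 over 1.32 to 1.54 in nulliparous mice and from 2.18 over 2.46 to 2.82 in lactating mice, a rise of 1.22 ± 0.09 (limma adjusted p = 1.81e-06). Its relative Scd1 rose 2.27-fold. Neither gene overlapped between states.

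Respiratory chain and ribosomal protein genes had directions that followed the scale. Respiratory chain subunits gave 13 higher and 10 lower of 37 on the 75th percentile scale and 20 and 2 after centring on the median. Cytosolic ribosomal proteins gave 3 higher and 10 lower of 31 on the first scale and 11 and none on the second. Ndufa10 rose by 0.98 and Cyc1 by 0.64, while Rps19 rose by 0.50. Rps14 fell by 0.32, a call that was lost after median centring (-0.14). No common direction can be given for either family. Among lists with more genes called higher, the number called lower went to 2 for the matrix list, 0 for fibroblast markers, 1 for DNA replication, 0 for glycolysis and 1 for antioxidant genes on the median scale.

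Antioxidant and protein turnover genes were mostly higher. Of 22 antioxidant genes 14 were called higher and 3 lower, among them Gpx1, a glutathione peroxidase (2.02-fold), and Gpx3 (1.37-fold), while catalase, encoded by Cat, fell by 0.86 ± 0.12. With the mean of its probes Cat had a change of -0.22 and was not called. Of 19 atrophy and autophagy genes 11 were called higher and 2 lower. Ctsl, a lysosomal protease, rose 1.68-fold, and Fbxo32, the muscle ubiquitin ligase atrogin-1, fell by 0.91 ± 0.14.

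Contractile and ion-handling genes moved in both directions. Of 24 sarcomere genes 6 were called higher (25%) and 12 lower (50%), against 37.4% and 24.3% over all tested genes. Their median was -0.16, and after median centring 7 were higher and 8 lower. Ldb3, a Z-disc protein, rose by 0.80 ± 0.06 (limma adjusted p = 3.48e-06), with nulliparous levels up to 5.69 and lactating levels from 6.06. Of 19 calcium handling genes 10 were called higher (52.6%) and 7 lower (36.8%), with 4 lower after median centring. Pln, the inhibitor of the sarcoplasmic calcium pump, rose 2.49-fold and the release channel gene Ryr2 1.62-fold, while Slc8a1, the sodium-calcium exchanger, fell by 0.87 ± 0.16. The pump gene Atp2a2 rose 1.26-fold, but had a change of 0.043 and was not called with the mean of its probes. Jph2, which holds the release units to the membrane, rose 1.60-fold.

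Among potassium and sodium channel genes 6 of 20 were called higher and 6 lower (30% each), near the 37.4% and 24.3% over all tested genes. After median centring 8 were higher and 4 lower. Kcnj2, the main inward rectifier of the ventricle, ran from -1.56 over -1.30 to -0.81 in nulliparous mice and from -2.78 over -2.54 to -1.98 in lactating mice. It fell by 1.22 ± 0.11 (limma adjusted p = 4.11e-06), without overlap. Kcnip2, the partner of the transient outward channel, rose 2.68-fold, and Kcnk3, a leak channel, 1.59-fold. Ventricular cardiomyocyte markers as a list gave 4 higher and 7 lower of 14, with a median of -0.16, but 5 higher and 3 lower after median centring.

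Genes of the circadian clock moved in both directions. Of 18 tested members 3 were called higher (16.7%) and 7 lower (38.9%), against 37.4% and 24.3% over all tested genes. Their median change was -0.53. The rises were Arntl (6.15-fold), its partner Clock (1.49-fold) and Nfil3 (1.67-fold). The falls were Per3, Per1, Cry2, Bhlhe41, Rora, and the PAR bZIP genes Hlf and Tef. Arntl and Clock drive the clock, and most of the falling genes are repressors or outputs that peak in another part of the day. Other repressors and outputs were among the 8 members not called. These were Per2 (-0.70), Dbp (-0.89), Ciart (-0.45), Bhlhe40 (-0.28), Nr1d1 (0.26) and Nr1d2 (0.04). Arntl was uneven within groups, with lactating wild-type levels of -2.31, 1.23, 1.82 and -0.02 and lactating knockout levels of -1.24, 0.95, -1.24 and -1.01. Nulliparous levels of Arntl were between -3.79 and -1.22, so the states overlapped. The hour of sampling was not given, and its part in these values was not tested.

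Per3 ran from -0.84 over -0.04 to 0.40 in nulliparous mice and from -3.89 over -1.50 to -0.96 in lactating mice, a fall of 1.85 ± 0.35 (limma adjusted p = 3.66e-04). The states did not overlap, and the spread was widest among lactating wild-type mice. Its promoter is shown because it holds repeats of the D-box, the site of the PAR bZIP factors encoded by Hlf and Tef, and of Nfil3, which competes with them. The window is chr4:151044666-151044915 (minus strand, GRCm38.p6), with TTATGTAA, searched on both strands, in capitals.
Per3: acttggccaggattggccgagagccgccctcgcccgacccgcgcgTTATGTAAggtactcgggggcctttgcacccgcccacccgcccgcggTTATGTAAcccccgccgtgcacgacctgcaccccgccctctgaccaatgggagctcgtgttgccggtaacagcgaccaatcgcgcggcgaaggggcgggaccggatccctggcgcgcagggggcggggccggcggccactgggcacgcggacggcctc
The matches lie at -205 to -198 and -158 to -151. Of 15 clock gene promoters 1 held this motif (6.67%) and 4 held the E-box CACGTG (26.7%), against 0.537% and 8.16% of the promoters of tested genes.

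Receptors and targets of lactation and growth hormones moved in both directions. Of 20 tested members 4 were called higher (20%) and 7 lower (35%), against 37.4% and 24.3% over all tested genes. Their median was -0.07, and after median centring 6 were higher and 4 lower. Prlr, the prolactin receptor gene, had a change of 0.62 ± 0.24 (limma adjusted p = 0.0343) with overlapping states. That call was lost with the replicate block (limma adjusted p = 0.0537), on each slide alone, and in 8 of 16 fits that left out 1 array, with adjusted p of up to 0.0741. Stat5a, its signal transducer, fell by 0.72 ± 0.09 without overlap. Igf1 rose by 0.43 and Igf2 fell by 0.93. Irs1, an adaptor of the insulin receptor, rose by 0.91, but had a change of 0.22 and was not called with the mean of its probes. Of 15 corticosteroid genes 4 were called higher (26.7%) and 5 lower (33.3%). Lcn2 rose 2.86-fold and the metallothionein gene Mt2 2.92-fold, and Nr3c2, the mineralocorticoid receptor gene, fell by 1.05 ± 0.21. Angiogenic genes gave 4 higher and 4 lower of 20 (20% each), or 6 and 3 after median centring. Among them Apln, the ligand of the apelin receptor, rose 3.37-fold and Fgf2 fell by 1.44 ± 0.15.

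**Figure D4:**
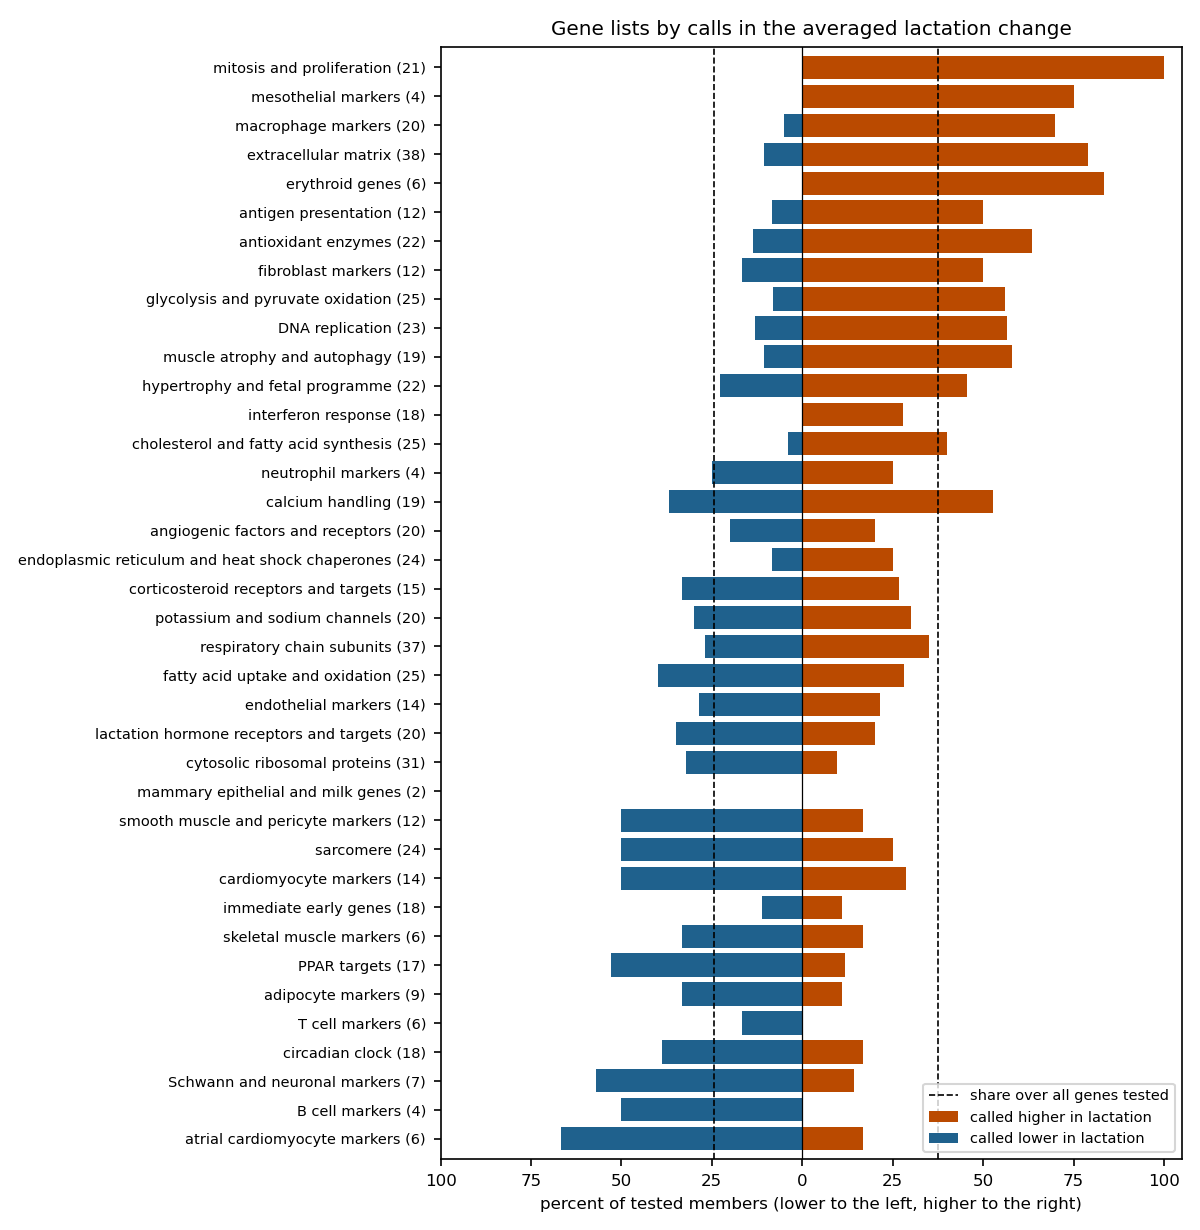
Bars give the percent of tested members of each list (number in brackets) called higher (right) or lower (left) in the averaged lactation change, ordered by the list's median change, and dashed lines mark the shares over all tested genes, 37.4% higher and 24.3% lower. Mitosis genes reach 100% higher, and the atrial markers have the largest share lower, 66.7%. Background was cleared on all 16 arrays by 12 of the 21 mitosis genes and 4 of the 6 atrial markers.

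Most tested atrial markers were lower, and their level varied with the single divergent array. Myl7, the atrial regulatory light chain, fell by 3.12 ± 0.80 and Sln, the atrial calcium pump inhibitor sarcolipin, by 3.01 ± 0.72. Of 6 tested atrial markers 4 were called lower and 1, Nppa, higher. Only 4 of these 6 cleared background on all 16 arrays, and of those 2 were called lower and 1 higher, with a median of -0.17. Myl7 and Sln cleared it on 10 and 13 arrays. A gene can pass the filter through the nulliparous groups alone, which favours falls, so the calls of such members add little. Myl7 was at -2.29, -0.99, -1.82 and -1.11 in nulliparous wild-type mice, and at -0.11, 0.78, -0.99 and -6.36 in nulliparous knockout mice. In lactating mice it ran from -6.05 to -3.36, so knockout replicate 4 lay below all of them. The mean over the 6 markers ran from 1.76 to 3.13 on the other nulliparous arrays and from 0.52 to 1.45 on the lactating arrays, with knockout replicate 4 at 0.40. These markers moved with the averaged change, and their part in other results was not tested.

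Other tissues were looked for in the same way. The milk genes Csn1s1, Csn2, Csn3 and Wap were well above background on 0 of 16 arrays. Of 9 adipocyte markers 1 was called higher and 3 lower, but this average joined unlike values. Their median change was 0.12 in wild-type mice (2 higher, 1 lower) and -0.76 in knockout mice (none higher, 4 lower). The genotype difference was called for 1 of them. Of 4 mesothelial markers 3 were called higher and none lower (1 lower without nulliparous knockout replicate 4 or after normexp correction). Only 2 of these 4 cleared background on all 16 arrays, and 1 of those was called higher. Msln and Krt19 of the mesothelium were at least 4.96-fold and at least 3.29-fold higher, and had changes of 0.79 and 0.25 after normexp correction. Unbounded, the Msln change was 4.24 in wild-type and 1.24 in knockout mice. Wt1 rose by 0.98 ± 0.20 over 15 arrays, 1 value having been left out as an outlier. In the authors' deposited values Wt1 had a change of 0.47 and was not called (limma adjusted p = 0.424). Nerve-associated genes gave 1 higher and 4 lower of 7, with Snap25 falling by 1.11 ± 0.14. Endothelial markers gave 3 higher (21.4%) and 4 lower (28.6%) of 14, against 37.4% and 24.3% over all tested genes. After median centring 5 were higher and 2 lower. Erg, an endothelial transcription factor gene, fell by 0.95 ± 0.12. Smooth muscle and pericyte markers gave 2 higher and 6 lower of 12, where Abcc9 fell by 0.99 ± 0.11 and Des, the desmin gene that cardiomyocytes also express, rose by 1.06 ± 0.13. Neutrophil markers gave 1 higher and 1 lower of 4, and skeletal muscle markers 1 higher, Acta1, and 2 lower of 6. Without nulliparous knockout replicate 4, 4 skeletal muscle markers were called lower, and after normexp correction 5. Immediate early genes, which respond to handling and sampling, gave 2 higher and 2 lower of 18. Without that array none was called higher and 2 lower, and after median centring 4 were higher and 1 lower. Chaperone genes gave 6 higher (25%) and 2 lower (8.33%) of 24, against 37.4% and 24.3% over all tested genes. After median centring 12 were higher and 1 lower. Hspb1 was 1.40-fold higher, and Hsp90b1 fell by 0.49 ± 0.08.

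Large changes outside these lists included several transport and secretory genes. Aqp8, an aquaporin, ran from -1.65 over -0.78 to 0.23 in nulliparous mice and from 1.59 over 1.91 to 2.90 in lactating mice, a rise of 2.67 ± 0.21 (6.35-fold). Eef1e1, a tRNA synthetase complex component, rose 3.31-fold, Kdelr3, a receptor that retrieves proteins to the endoplasmic reticulum, 3.23-fold, and Bmp7, a growth factor of the TGF-beta family, 3.20-fold. The last 3 were among the largest rises with genotype intervals inside -1 to 1, a bound that still allows a difference of up to 1 log2. Cyp1a1, the target enzyme of the aryl hydrocarbon receptor, was well above background on all 8 lactating arrays and no nulliparous array. It was at least 3.03-fold higher, and the transcription factor gene Tbx15 at least 1.80-fold. Sowahb showed the opposite pattern and was at least 2.67-fold lower. These bounds hold for the processed signals only: after normexp correction the changes were 0.39 for Cyp1a1 and -0.74 for Sowahb, and 0.12 for Tbx15, which was not called.

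**Figure D5:**
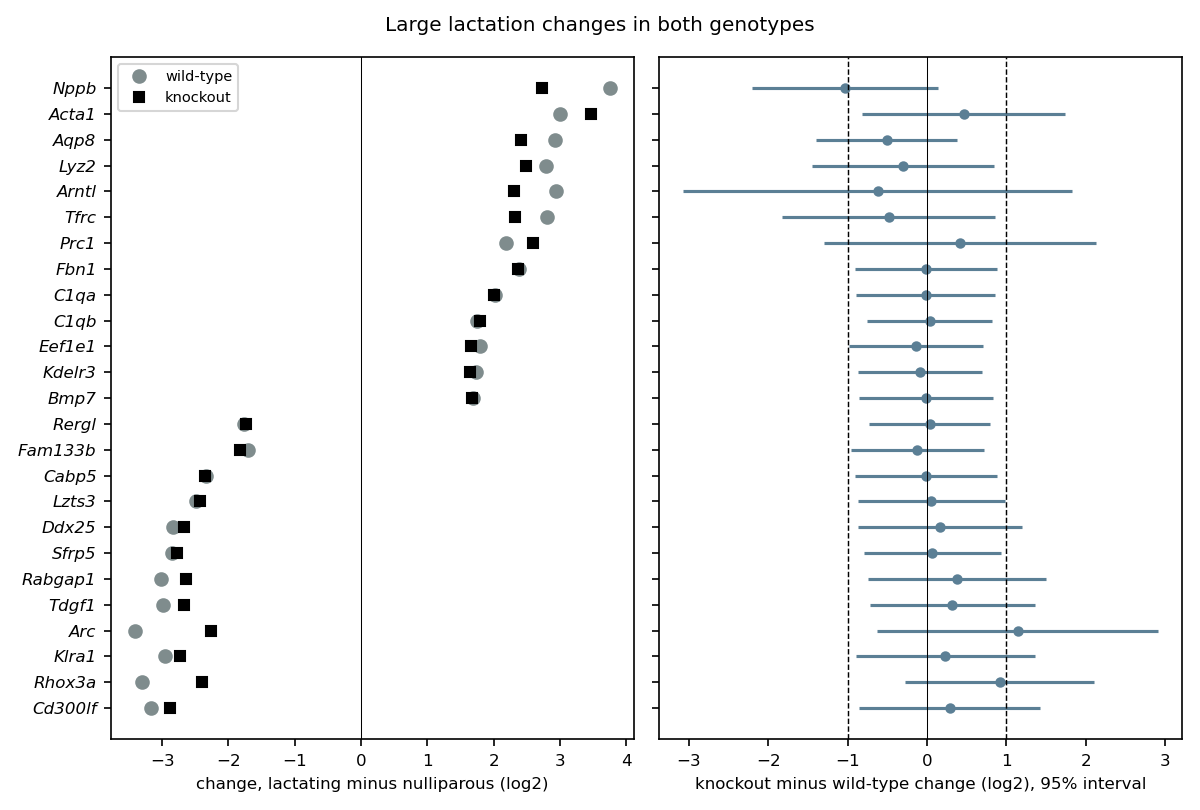
Shown are 25 genes bright on every array, with the largest averaged changes or the largest whose genotype interval lay inside -1 to 1. The left panel shows the lactating minus nulliparous change (log2) in wild-type (circles) and knockout (squares). The right panel shows the knockout minus wild-type difference with its 95% interval. Intervals of Fbn1, C1qa, C1qb, Bmp7, Rergl and Sfrp5 lie between the dashed lines at -1 and 1, while those of Nppb, Acta1, Arntl and Arc do not.

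Sfrp5, which encodes a secreted Wnt antagonist, ran from -0.40 over 0.25 to 0.90 in nulliparous mice and from -3.45 over -2.52 to -2.06 in lactating mice, a fall of 2.81 ± 0.20 (7.02-fold, limma adjusted p = 1.81e-06). No values overlapped, and the change was -2.84 in wild-type and -2.78 in knockout mice, with a 95% interval of -0.80 to 0.93 for their difference. Arc, an immediate early gene, fell by 2.84 ± 0.41, with 1 nulliparous knockout array at -0.95 inside the lactating range of -1.58 to -0.19. Rergl, a Ras-like gene of smooth muscle, fell by 1.75 ± 0.18. Further large falls were those of Zfhx2 (-2.75), Atg9b (-2.40), Pdzd2 (-2.32) and Pirt (-2.05). For Zfhx2 a second, dimmer probe had a change of 0.64, and both other probes of Pdzd2 changed by -1.56.

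Among genes bright on all 16 arrays, most of the largest falls ran in parallel. Myl7 and Sln, above background on 10 and 13 arrays, are outside this ranking. Of its 8 largest falls, 6 (Cd300lf, Rhox3a, Klra1, Tdgf1, Rabgap1 and Ddx25) belonged to a set of 28 genes whose levels followed those of Klra1. Lzts3 and Cabp5, among the largest falls with genotype intervals inside -1 to 1, also belonged to it. Cd300lf ran from 3.71 over 5.50 to 6.05 in nulliparous mice and from 1.85 over 2.39 to 2.74 in lactating mice, a change of -3.03 ± 0.27. Its other probes were dimmer and had changes of 1.93 and 1.45. Second probes of Tdgf1 and Cabp5 had mean levels of -6.26 and -6.23 and were well above background on 0 of 16 arrays. Among 7 genes of the set, deviations from the group means correlated pairwise between 0.953 and 0.997 over the 16 arrays. The falls of these probes cannot be counted as separate genes, and what their probes measured was not tested.

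Dim genes had smaller changes after normexp correction, whose offset of 50 by itself makes such changes smaller. Of 169 called genes named by rule, 39 had a change there that was smaller by over 1.5 times or turned, and 12 lost their call. Among the rises were Arntl (1.51), Prc1 (1.28), Thbs1 (1.12), Adgre1 (0.96), Anln (0.93), Bmp7 (0.84), Eln (0.67), Tcf21 (0.66), H2-DMa (0.53) and Irf7 (0.51), which all stayed called. Among the falls were Sfrp5 (-1.87), Sln (-1.67), Zfhx2 (-1.52), Myl7 (-1.42), Rergl (-1.01), Kcnj2 (-0.78), Fgf2 (-0.78) and Nr3c2 (-0.68), which also stayed called. With the mean of a gene's probes 20 of the 169 were smaller by over 1.5 times or turned and 11 lost their call. Still called there, with smaller changes, were Tfrc (1.63), Tdgf1 (-1.19), Zfhx2 (-1.06), Rabgap1 (-0.98) and Rora (-0.35).

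For the 13 genes with a called genotype difference the average joined unlike responses. It may do so for other genes too, as a missing call does not show equal responses. Tchhl1 was not well above background in nulliparous wild-type mice and was at least 10.4-fold higher in lactation on average. It was at -6.12, -5.93, -5.56 and -5.74 in nulliparous wild-type mice and 1.12, 0.39, 1.06 and 0.40 in lactating wild-type mice. In knockout mice it was already at -1.23, -0.63, -2.07 and -1.31 before lactation, and reached 0.69, 0.71, -0.13 and -0.09. The lactating groups therefore lay close together and the difference arose among nulliparous mice. Plaat1, a phospholipid-modifying enzyme gene, had changes of 5.10 in wild-type and 1.13 in knockout mice, and Tchh was at least 3.19-fold higher on average. After normexp correction the averaged changes were 1.86 for Tchhl1 and 0.51 for Tchh. Pi4kb rose by 0.90 in wild-type and had a change of -0.34 in knockout mice. Whether these differences followed from loss of the receptor or from another difference between the genotypes was not tested.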

How the data were processed

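Ventricular RNA of 16 mice, 200 ng each, was hybridised to one-colour Agilent arrays, per the labels' protocols. The deposited scanner files give a linear intensity per spot, extracted by Agilent Feature Extraction (version 10.7.3.1, submitters' processing notes), with background subtracted within the array per the file headers. A second deposited table holds the authors' log2 value of each probe. Over 24613 probes its columns followed log2 scanner values scaled to the 75th percentile and centred on the nulliparous wild-type mean (r of at least 0.9998), with column medians of -0.382 to 0.0318, so its scale, centring and direction were settled from the data. It was used as an alternative.

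Of 62976 spots an array, 59305 carried no control and gave 55681 probes. Values marked as outliers were left out, and no probe was saturated. A symbol was found for 28039 probes (50.4%), with 27793 of 28167 RefSeq accessions named through a GRCm38.p6 gene table. The array headers name mm9, so that table gave names only; promoter sequences and coordinates are RefSeq's in GRCm38.p6. The brightest probe stood for a gene. The filter removed 7094 genes, and 12709 tested genes cleared background on 16 arrays.

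Means of the 4 groups were fitted with limma 3.58.1 in R 4.3.3 (lmFit and eBayes, 12 residual degrees of freedom), two-sided. A gene dim on every array of a group was given as a bound. The array number limits precision. The fit was tested on simulated data. Slides 1 and 2 were also scans 1 and 2 and held 2 arrays of each group. Every group kept its own column on both slides, so position and group cannot be told apart.

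Named genes were 14 markers, the 8 largest rises and falls bright on all arrays, and the 3 largest that were dim on all arrays of a state. The 6 largest of each direction with a genotype interval inside -1 to 1 were also named. So were the 2 members of each list with the smallest adjusted p, and the 4 clearest genotype differences. Added after their values were seen were called members of 7 lists, the 10 largest falls outside the parallel set (levels with r over 0.98 with Klra1) and 25 further list members. A few genes that these rules pick are not reported here. A gene named beside a list with its change alone was chosen after its value was seen. The 38 lists (666 genes, 605 tested), members and motifs were chosen with earlier results of these data known. Alternatives were normexp background correction (offset 50, on median spot signals, as the files hold no mean), quantile normalization, median centring, other filters, the mean of probes, an additive model, trended variance, array weights, replicate and slide blocks, each slide alone and each array left out. Figures used matplotlib 3.10.9.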

Additional observations from a re-analysis of the deposited data

Results flagged for a closer look

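Among 680 groups of 4 arrays, 37 held an array far from the others of its group by Dixon's criterion, against 34 that chance gives at 1 in 20 groups. Each is given as the level on that array, followed by the range of the other 3 arrays of its group. Nulliparous knockout replicate 4 had 10 of these 37 values, and the other 27 were spread over 11 arrays, with 5 on nulliparous wild-type replicate 3. The values on nulliparous knockout replicate 4 were those of Lyz2 (level -0.032, above -2.32 to -2.24), C1qa (level 2.34, above 0.48 to 0.74) and Cd22 (level 0.34, below 1.30 to 1.49). It also stood apart for Abcc9 (level 5.52, below 6.20 to 6.28), Igfbp5 (level 3.04, below 3.70 to 3.83), Pdzd2 (level 0.87, below 2.36 to 2.48) and Pirt (level -0.81, below 0.63 to 0.67). The last 3 were Top2a (level -3.32, above -6.24 to -5.96), Folr2 (level 1.66, above -0.37 to -0.27) and Kcnip2 (level 1.49, above 0.08 to 0.15). In each of these genes it lay on the side of the lactating arrays.

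Nulliparous knockout replicate 1 stood apart for Acta1 (level 3.03, below 4.73 to 4.99). Lactating knockout replicate 4 stood apart for Col3a1 (level 5.55, above 5.07 to 5.09), Pvalb (level -1.09, above -1.85 to -1.79) and Cidea (level 4.997, above 4.79 to 4.80). The same array stood apart for Ccnb1 (level -1.23, above -2.67 to -2.52). Lactating knockout replicate 3 stood apart for Angptl4 (level 2.68, above 0.99 to 1.26). Lactating knockout replicate 2 stood apart for Arntl (level 0.95, above -1.24 to -1.01), C1qb (level 2.47, below 2.61 to 2.61) and Igfbp5 (level 2.50, below 3.04 to 3.15). Nulliparous wild-type replicate 3 stood apart for Lzts3 (level 7.54, below 7.89 to 7.94), Plaat1 (level -3.37, below -2.47 to -2.33) and Col15a1 (level -0.67, below 0.37 to 0.57). The same array stood apart for Folr2 (level -0.19, below 0.23 to 0.25) and Slc8a1 (level 1.69, below 2.34 to 2.35). Lactating wild-type replicate 3 stood apart for Wt1 (level 2.62, above 1.22 to 1.28), Ctsl (level 5.67, below 5.88 to 5.92) and Hspa1a (level 2.00, above -1.90 to -1.45). Nulliparous wild-type replicate 4 stood apart for Hba-a1 (level 7.85, below 8.19 to 8.22), Ppargc1a (level 4.74, below 5.29 to 5.31) and Irs1 (level 2.86, above 2.51 to 2.56). Nulliparous wild-type replicate 2 stood apart for Ldb3 (level 5.28, above 5.23 to 5.24). Lactating wild-type replicate 1 stood apart for Fgf1 (level 6.08, above 5.72 to 5.73), Pi4kb (level 0.50, above 0.41 to 0.42) and Igfbp5 (level 2.28, below 2.89 to 2.95). Nulliparous wild-type replicate 1 stood apart for Cpt1b (level 6.11, above 5.88 to 5.91) and Pdzd2 (level 2.43, above 1.99 to 2.06). Lactating knockout replicate 1 stood apart for Pirt (level -2.15, below -1.35 to -1.30).

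The lactation change differed between genotypes, by limma's test of that difference, for the 4 named genes. The knockout change less the wild-type change was -4.98 for Tchhl1 (adjusted p = 7.26e-05), -3.97 for Plaat1 (adjusted p = 0.00156), -2.74 for Tchh and -1.24 for Pi4kb.

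Probes without a gene symbol were used in no comparison above. Of 27642 such probes 10467 passed the filter, and limma called 6057 of these (57.9%) in the averaged change, 2039 higher and 4018 lower in lactation. Among called genes with a symbol 60.6% were higher.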

How the results depend on the processing

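For the named genes under 30 alternatives, 4923 values kept direction and side of the threshold, 158 lost the call and 5 changed sign; 95 of 170 named genes kept both under all 30. The sign changes were Cd300lf (0.12) and Insr (0.21) with the mean of a gene's probes, Tyms (-0.000133) and Lox (-0.015) after normexp correction, and Fabp3 (0.14) after quantile normalization. Genes called lower numbered 1961 after median centring and 6227 without the filter on dim probes. On slide 2 alone, with 8 of 16 arrays, 2198 genes were called (1500 higher, 698 lower), 104 in wild-type and 0 in knockout alone. The genotype difference gave 6 calls with the filter on all 16 arrays, 73 with array weights, 6 on slide 1, 1 on slide 2 and 7 without nulliparous wild-type replicate 4. The cause of these moves was not tested, beyond the fewer arrays of a slide. Leaving out 1 array gave 8189 to 9175 called genes, 5005 to 5478 higher and 3160 to 3697 lower, with 6184 to 7475 in wild-type, 4705 to 7426 in knockout and 7 to 17 genotype differences. The lowest knockout counts came without nulliparous knockout replicates 2 and 1, and the highest, 7426, without replicate 4. Among 1230 genes with at least a 2-fold called change, 640 were in the dimmest brightness class. After normexp correction 71 of these also had a called change of that size and sign. The median probe signal was 14.4 to 26.4 on the arrays, so the added offset of 50 shrinks changes of dim probes by itself. The drop therefore does not tell what limits the size of dim changes.

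Same-numbered arrays deviated together only weakly. Their deviations correlated at a mean of 0.05 (range -0.14 to 0.18), against -0.02 (range -0.28 to 0.25) for arrays of unlike number. A correlation over 0.1 was seen in 8 of 24 same-numbered pairs and 10 of 72 other pairs. With the replicate number as a block 8700 genes were called, 5249 higher and 3451 lower, and 9 genotype differences.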
